A study of Mus musculus with 4 samples.

Results

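The genes described are the nuclear-encoded subunits of respiratory complexes II, III, IV and V and a few close relatives, as measured in mouse bone marrow cultures during space flight and on the ground. Members were all probe sets with a single platform gene symbol that starts with Uqcr, Atp5 or Cox followed by a digit from 4 to 8, or that reads Sdha, Sdhb, Sdhc or Sdhd. This gave 91 of 45101 probe sets and 46 of 18193 genes, with 4 genes of complex II, 8 of complex III, 17 of complex IV and 17 of complex V. Complex I and the mitochondrially encoded subunits are outside the rule.

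In the inner mitochondrial membrane, complex II (succinate dehydrogenase) feeds electrons from succinate into the ubiquinone pool, and complex III passes them on to cytochrome c. Complex IV (cytochrome c oxidase) hands them to oxygen, and complex V (ATP synthase) makes ATP from the proton gradient that complexes III and IV help to build. Complexes III, IV and V each have a catalytic core surrounded by small accessory subunits, and some subunits of complex IV come in tissue-restricted isoforms. Complex II is made of the products of Sdha, Sdhb, Sdhc and Sdhd. Macrophages use this machinery for ATP supply, and the balance between respiration and glycolysis is known to shift with their activation.

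Of 4 arrays, 2 held RNA of space flight cultures and 2 that of ground control cultures. The cultures of both groups came from 1 pool of marrow from 21 C57BL/6 mice over 8 weeks old, depleted of red cells and grown at 37 °C with 1.5 µg/ml of the growth factor M-CSF, which drives marrow progenitors towards macrophages. Fresh medium was mixed in on culture day 6, and guanidinium lysed the cells on day 15, which was flight day 14 for the shuttle cultures. Each array carried a separate RNA pool of 2 culture barrels, so the p-values below cover the spread between cultures and arrays and not that between mice. The ground cultures were kept under a parallel temperature and mixing schedule, and the pools put on arrays were those with the best RNA. Levels are quantile normalized log2 intensities of 1 probe set. A difference is the space flight mean less the ground control mean on that scale, with standard errors (SE) from limma and n = 2 arrays per group. A gene counts as measured where its brightest single-gene probe set had a mean of at least 6.40, the median of all probe sets that are not controls. Of the 46 members, 42 were measured.

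The arrays differed in the 3' to 5' signal ratios of control genes. Every pool sent for labelling had an RNA integrity number of 3, and the signal at the 3' end of Gapdh over that at its 5' end was 4.09 and 15.2 in space flight against 4.13 and 3.33 in ground control, highest on flight array 2. The 3 controls did not order the arrays alike. The ratio of Actb was 3.08 and 4.91 in space flight against 2.30 and 2.84 in ground control, and that of the transferrin receptor control was 5.50 and 3.47 in space flight against 4.96 and 7.84 in ground control, lowest on flight array 2. The cultures also differed in marker genes. All 10 macrophage markers looked for were measured, with Csf1r, Cd68 and Lyz2 at 14.73 or more on every array, and their mean level was 10.94 and 11.09 in space flight against 11.11 and 11.38 in ground control. The macrophage genes ran from −1.47 for Mrc1 to 1.02 for Fcgr1, and none passed limma's test. Both flight arrays lay below for 6 of the 10, against 22.5% of all measured genes, and above for 1, against 23.0%. Csf1r, Cd68 and Lyz2 were among the 6, at −0.37, −0.43 and −0.06. The mean level of the 11 measured of 12 neutrophil markers was 11.06 and 11.66 in space flight against 9.89 and 10.06 in ground control. Of these, Camp and Ngp passed limma's test (adjusted p = 0.0347 each). Both flight arrays lay above for 10 of the 11, against 23.0% of all measured genes. The mean level of the 7 measured of 12 erythroid markers was 8.85 and 9.37 in space flight against 8.08 and 8.35 in ground control. None of them passed, and they ran from −0.42 for Gata1 and −0.14 for Tfrc to 2.17 for Slc4a1. In a mixed culture, fewer cells of a type and less RNA per cell cannot be told apart, and the part of cell mixture or RNA quality in the results below was not tested. Of the markers of other cells, 1 of 6 for dendritic cells, 2 of 8 for lymphocytes, 5 of 7 for osteoclasts, 1 of 6 for mast cells and basophils and 4 of 6 for stroma were measured. None of these passed limma's test, and their differences lay on both sides of 0. The lymphocyte genes Cd79a and Nkg7 stood at 0.84 and 0.91, the basophil gene Mcpt8 at 1.34 and the dendritic cell gene Itgax at −0.76. The osteoclast genes ran from −1.15 for Atp6v0d2 and −1.02 for Ctsk to 1.73 for Mmp9, and the stromal genes from −1.26 for Col3a1 to 0.83 for Dcn.

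To show the control regions of members that stood high in flight, the 250 bases before the annotated start are given for the 3 members with the largest differences among those with 1 RefSeq promoter window (assembly GRCm38.p6), Atp5md at chr19:47090648-47090897, Atp5l at chr9:44920743-44920992 and Uqcrh at chr4:116075071-116075320, all on the minus strand and written 5' to 3' along the gene. Capitals mark matches on either strand to CCGGAAG, a core bound by ETS family factors such as GABP, to GCGCATGC, a core of the site of nuclear respiratory factor NRF1, or to AAGATGGC, a core of the YY1 site. These factors are known regulators of nuclear genes for respiration.
Atp5md: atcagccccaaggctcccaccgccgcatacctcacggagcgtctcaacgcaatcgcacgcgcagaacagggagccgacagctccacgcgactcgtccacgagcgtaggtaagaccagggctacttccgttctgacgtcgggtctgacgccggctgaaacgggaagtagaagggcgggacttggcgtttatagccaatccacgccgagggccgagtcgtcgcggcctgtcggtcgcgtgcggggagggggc
Atp5l: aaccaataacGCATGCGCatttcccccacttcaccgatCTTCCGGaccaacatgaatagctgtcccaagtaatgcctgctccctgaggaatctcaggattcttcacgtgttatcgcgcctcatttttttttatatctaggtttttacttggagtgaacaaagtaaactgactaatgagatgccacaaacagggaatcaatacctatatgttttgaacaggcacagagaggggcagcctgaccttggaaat
Uqcrh: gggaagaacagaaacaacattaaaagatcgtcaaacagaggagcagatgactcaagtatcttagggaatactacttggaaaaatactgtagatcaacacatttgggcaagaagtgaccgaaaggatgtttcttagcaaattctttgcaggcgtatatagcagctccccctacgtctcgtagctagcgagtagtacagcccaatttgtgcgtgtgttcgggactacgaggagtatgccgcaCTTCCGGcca

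The Atp5l stretch held a match to each of the NRF1 and ETS letters. The Uqcrh stretch held a match to the ETS letters at its end, close to the annotated start of the gene. The Atp5md stretch held none of the 3 motifs. Windows were available for 35 of the 46 members. Cox6b2, Cox7b2 and Cox8b, which were not measured, are among the 35, while the comparison is with measured genes alone. The ETS letters were found for 9 of the 35 (25.7%) against 16.1% of the 9074 measured genes with a window. The NRF1 letters were found for 5 (14.3%) against 5.17%. The YY1 letters were found for 1 (2.86%) against 2.56%, the letters TATAAA for 3 (8.57%) against 8.01%, and the GC box GGGCGG for 12 (34.3%) against 62.9%. None of these shares was tested, and a match is no evidence of binding.

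In the flown cultures, transcripts for some small accessory subunits of complexes III and V stood highest among the members. Atp5md, Atp5mpl and Uqcrq led with differences of 1.05 ± 0.31, 0.89 ± 0.23 and 0.89 ± 0.25 (SE). Cox6a2 and Cox8a of complex IV stood at 0.71 and 0.63, while the 9 ubiquitous subunits of that complex, Cox8a among them, had a median of 0.04. The lowest members were Cox7c at −0.89 ± 0.83 (SE), the ATP synthase rotor gene Atp5c1 at −0.64 ± 0.16 and the succinate dehydrogenase flavoprotein gene Sdha at −0.40 ± 0.22. The mean signal of Cox7c only just reached the limit for measured genes. Other catalytic, core and central stalk subunits stood on both sides of 0, with Sdhb at −0.04, Uqcrc1 at 0.37, Atp5d at 0.24 and Atp5e at 0.57. None of these differences passed the test over all genes. By limma with Benjamini-Hochberg adjustment over 11141 measured genes at a threshold of 0.05, 0 of the 42 measured members were called in either direction, where 0.0449% of all measured genes were called higher and 0.0180% lower, or 0.0628% in all. The smallest adjusted p of any member was 0.123, that of Atp5c1.

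At an unadjusted p under 0.05, 8 members (19.0%) stood higher and 1 (2.38%) lower in space flight, against 6.88% and 7.32% of all measured genes. The 8 were Uqcrq, Uqcrh and Uqcr11 of complex III, Cox4i1 and Cox6a2 of complex IV, and Atp5mpl, Atp5md and Atp5l of complex V, and the 1 was Atp5c1. Both space flight arrays lay above both ground control arrays for 16 members (38.1%) against 23.0% of all measured genes, and below them for 5 members (11.9%) against 22.5%. The remaining 21 overlapped. The difference was above 0 for 24 members (57.1%) against 51.2% of all measured genes, over 0.5 for 9 against 16.5% of all, and under −0.5 for 2 against 15.3%. For 1 gene alone, the smallest two-sided p that an exact permutation of these arrays can reach is 0.333. The calls depended on single arrays. So did the excess of members higher at an unadjusted p under 0.05 over the share of all genes. That excess was absent without space flight replicate 2 and small without ground control replicate 1. It remained when either of the other arrays was left out. Without space flight replicate 1, 7 members were called higher and 2 lower, where 9.69% of all genes were called, and without space flight replicate 2, 1 was called higher and 1 lower, where 6.65% were called. No member was called when either ground control array was left out, where 0.0628% and 0.368% of all genes were called. Members higher at an unadjusted p under 0.05 numbered 13 without space flight replicate 1 (12.1% of all genes), 4 without replicate 2 (9.84%), 2 without ground control replicate 1 (3.63%) and 9 without its replicate 2 (4.28%).

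**Figure D1:**
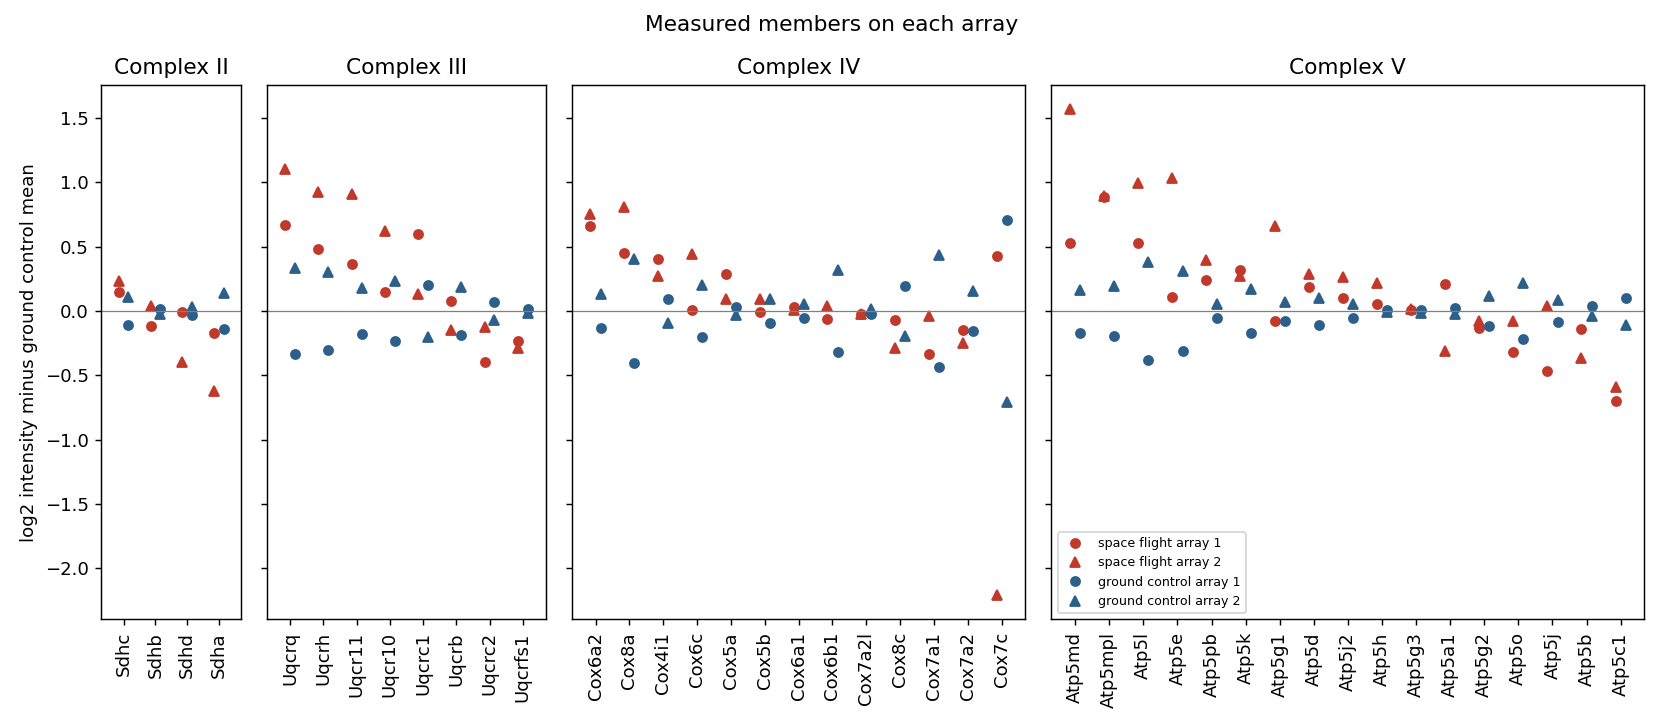
Log2 intensity of each measured member on each array, minus the ground control mean of the gene, for complexes II to V; red symbols are space flight arrays 1 and 2 and blue symbols ground control arrays 1 and 2. Atp5md, Atp5mpl and Uqcrq stand highest in flight, Cox7c on space flight array 2 lies lowest, and groups are separated for 21 of the 42 genes.

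By complex, the median difference was −0.12 for the 4 genes of complex II, 0.38 for the 8 of complex III, 0.02 for the 13 measured of complex IV and 0.18 for the 17 of complex V, beside 0.02 over all measured genes. Against the ground control mean, the medians on space flight arrays 1 and 2 were −0.06 and −0.18 for complex II, 0.26 and 0.38 for complex III, 0.01 and 0.04 for complex IV and 0.10 and 0.27 for complex V. On ground control arrays 1 and 2 the same medians were −0.07 and 0.07, −0.18 and 0.18, −0.09 and 0.09, and −0.08 and 0.08. On the quantile scale, complex III was thus the complex with both flight medians above both ground medians by the widest margin. Complex IV lay within the ground spread on both flight arrays, and complex II lay below the ground spread on array 2 alone. The differences between complexes were not tested. Scaling by the array median in place of quantiles put all genes at a median of −0.16, and relative to that value the complexes stood at −0.17, 0.29, 0.22 and 0.32 for II, III, IV and V. With the deposited scaling alone, the medians were −0.13, 0.33, 0.26 and 0.36, beside 0.04 over all measured genes. The order of complexes III and V thus depended on the scaling.

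**Figure D2:**
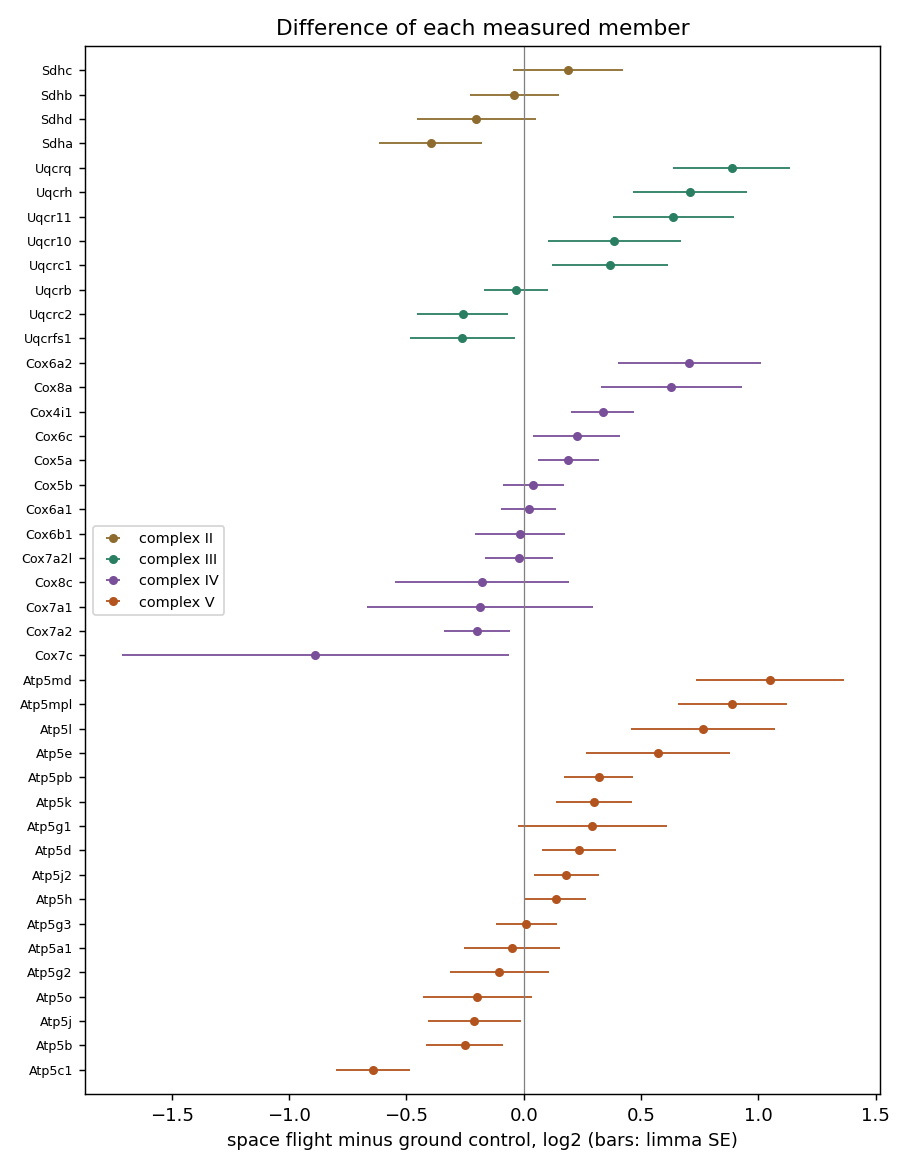
Difference between space flight and ground control for each of the 42 measured members, in log2 units, with bars of 1 limma SE, grouped by complex and coloured likewise. Within complexes III and V the members run from below 0 (Uqcrfs1 at −0.26, Atp5c1 at −0.64) to well above it (Uqcrq at 0.89, Atp5md at 1.05).

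Complex II has a catalytic pair, the flavoprotein Sdha that oxidises succinate and the iron-sulphur protein Sdhb, held in the membrane by Sdhc and Sdhd. Sdha had 12.72 and 12.26 in space flight against 12.75 and 13.03 in ground control, a difference of −0.40 ± 0.22 (SE; limma adjusted p = 0.445). Both flight arrays lay below both ground arrays, array 1 by a narrow margin, and its 2 other measured probe sets gave −0.23 and −0.94, also with no overlap. The difference was −0.17 without space flight replicate 2, −0.26 without ground control replicate 2 and −0.62 without space flight replicate 1. Sdhb had 12.53 and 12.68 in space flight against 12.67 and 12.63 in ground control, with overlapping groups and a difference of −0.04 ± 0.19. Sdhc had 11.51 and 11.59 in space flight against 11.25 and 11.47 in ground control, where both flight values were the higher ones, with a difference of 0.19 ± 0.23. Sdhd had 11.25 and 10.87 in space flight against 11.23 and 11.29 in ground control, and only flight array 2 was low. The 2 measured probe sets of Sdhd did not point the same way. The brighter gave −0.20 ± 0.25. The other, of the maker's class that can bind further transcripts (ending in _s_at or _x_at), gave a difference of 0.76. It had 9.97 and 10.46 in space flight against 9.32 and 9.59 in ground control. Probe sets of that class also gave the main values of other members, among them Sdha, Uqcrq, Uqcrh, Atp5c1, Atp5e and Cox8a. Without that class the differences were −0.23 for Sdha, 0.23 for Cox8a and −0.78 for Atp5c1.

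The members of complex III were grouped into the Rieske and core proteins and the small subunits, by textbook structure and with the values in view. Differences of these parts overlapped, with the core protein Uqcrc1 at 0.37 and the small subunit Uqcrb at −0.03. Of the Rieske iron-sulphur protein Uqcrfs1 and the core proteins Uqcrc1 and Uqcrc2, Uqcrfs1 had 11.48 and 11.42 in space flight against 11.73 and 11.70 in ground control, a difference of −0.26 ± 0.22 (SE) with no overlap. Uqcrc2 had 12.49 and 12.76 in space flight against 12.95 and 12.82 in ground control, again with both flight values below, a difference of −0.26 ± 0.19, and its other measured probe set gave −0.54. Uqcrc1 differed from these in direction, with 12.46 and 11.99 in space flight against 12.06 and 11.66 in ground control and a difference of 0.37 ± 0.25, and its groups overlapped.

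Of the small subunits of complex III, 3 of 5 had flight values above both ground values, as did 23.0% of all measured genes. Uqcrq had 13.10 and 13.53 in space flight against 12.09 and 12.76 in ground control, a 1.85-fold difference of 0.89 ± 0.25 (SE; limma adjusted p = 0.154). The hinge protein gene Uqcrh, whose product sits beside cytochrome c1, had 13.02 and 13.47 in space flight against 12.23 and 12.84 in ground control, a difference of 0.71 ± 0.24 (limma adjusted p = 0.219). In both genes ground array 1 was the lowest and flight array 2 the highest, so the gap between the groups was narrow beside the spread within them. Uqcr11 had 11.83 and 12.38 in space flight against 11.29 and 11.64 in ground control, a difference of 0.64 ± 0.26 (limma adjusted p = 0.300). With 1 array left out, the differences ran from 0.55 (without ground control replicate 1) to 1.22 (without ground control replicate 2) for Uqcrq, from 0.40 to 1.01 without the same arrays for Uqcrh, and from 0.37 (without space flight replicate 2) to 0.91 (without space flight replicate 1) for Uqcr11. All 3 genes were called without space flight replicate 1, with limma adjusted p from 0.00482 to 0.0266. Uqcr10 had 10.97 and 11.44 in space flight against 10.59 and 11.05 in ground control, and overlapped narrowly at 0.39 ± 0.28. Its 2 other probe sets gave 0.57 and 0.67 with no overlap. Uqcrb, with 15.69 and 15.47 in space flight against 15.43 and 15.79 in ground control, showed no separation, and its difference of −0.03 ± 0.14 turned to 0.29 with the deposited scaling alone. For Uqcrh the second probe set gave 0.62 with overlap, and for Uqcrq a dimmer one that only just reached the limit gave 0.33.

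In complex IV the differences ran from −0.89 for Cox7c to 0.71 for Cox6a2 around a median near 0. Its ubiquitous subunits include several that lay near 0, namely Cox5b at 0.04 ± 0.13 (SE), Cox6a1 at 0.02 ± 0.12 and Cox6b1 at −0.01 ± 0.19. The other measured probe sets of Cox5b gave 0.08 to 0.24, some of them with no overlap. Cox6b1 had 14.36 and 14.47 in space flight against 14.11 and 14.75 in ground control, with the flight values inside the ground range. Cox4i1, the ubiquitous form of subunit 4, had 14.86 and 14.73 in space flight against 14.55 and 14.36 in ground control, a difference of 0.34 ± 0.13 (limma adjusted p = 0.293) with both flight values above. Cox8a had 11.46 and 11.81 in space flight against 10.60 and 11.40 in ground control, where flight array 1 lay only just above ground array 2, at 0.63 ± 0.30. Its other measured probe set gave 0.23 and overlapped. Cox5a had 14.91 and 14.71 in space flight against 14.65 and 14.59 in ground control, at 0.19 ± 0.13 with no overlap, and Cox5a had 2 further probe sets at 0.31 and 0.44. Cox6c had 14.24 and 14.68 in space flight against 14.03 and 14.44 in ground control, at 0.23 ± 0.19 with overlap, and its second probe set gave −0.04. Cox7a2 had 14.73 and 14.62 in space flight against 14.72 and 15.03 in ground control, with only ground array 2 apart, at −0.20 ± 0.14. Its second probe set had 12.86 and 12.99 in space flight against 13.10 and 13.25 in ground control, −0.25 with no overlap.

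Cox7c, a small ubiquitous subunit, had the lowest difference of all members, −0.89 ± 0.83 (SE; limma adjusted p = 0.668), with 7.53 and 4.89 in space flight against 7.80 and 6.39 in ground control. These values lie near the limit for measured genes, and flight array 1 lay inside the ground range, so the difference rested on flight array 2. Without space flight replicate 2 it was 0.43, and without space flight replicate 1 it was −2.21 and called (limma adjusted p = 0.0294). Cox7a2l is described as a factor that joins complexes III and IV into supercomplexes, a function that these arrays do not measure. It had 13.94 and 13.94 in space flight against 13.94 and 13.98 in ground control. Its difference of −0.02 ± 0.14 and those of its 2 other probe sets, 0.08 and −0.07, lay on either side of 0.

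Of the 7 tissue-restricted isoforms of complex IV, 4 did not reach the limit, namely Cox4i2, Cox6b2, Cox7b2 and Cox8b. Cox4i2, the alternative form of subunit 4, had 6.22 and 6.67 in space flight against 6.07 and 6.34 in ground control. Cox6b2 had 4.63 and 4.39 in space flight against 5.88 and 4.89 in ground control. Cox7b2 had 5.97 and 5.12 in space flight against 5.70 and 4.40 in ground control. At these levels an array signal gives little hold on a difference, and the groups overlapped for all but Cox6b2. Cox8b had 4.71 and 5.22 in space flight against 4.61 and 5.10 in ground control. Cox6a2, the heart and skeletal muscle form of subunit 6a, had 9.54 and 9.63 in space flight against 8.74 and 9.01 in ground control, a difference of 0.71 ± 0.30 (SE; limma adjusted p = 0.326). The flight values were close together and above both ground values, and a second probe set had 7.90 and 8.66 in space flight against 7.04 and 7.34 in ground control, a difference of 1.08. The ubiquitous Cox6a1 overlapped on its brightest probe set, with 15.05 and 15.03 in space flight against 14.97 and 15.07 in ground control, and gave 0.24 on the other. Cox7a1, the muscle form of subunit 7a, had 6.90 and 7.19 in space flight against 6.79 and 7.66 in ground control. Cox8c, the testis form of subunit 8, had 8.01 and 7.80 in space flight against 8.28 and 7.89 in ground control. Both overlapped, at −0.19 ± 0.48 and −0.18 ± 0.37.

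ATP synthase has an F1 head with its central stalk, a ring of c subunits, a peripheral stalk, and small membrane subunits that line the membrane domain. The small membrane subunits stood highest, with a median difference of 0.76 over 5 genes and both flight arrays above for all 5, as for 23.0% of all measured genes, in a grouping again made with the values in view. Atp5md, also known as DAPIT, had 12.11 and 13.15 in space flight against 11.41 and 11.75 in ground control, a 2.07-fold difference (limma adjusted p = 0.175). Flight array 2 stood far above the rest, and without it the difference was 0.53. Atp5mpl, a small proteolipid, had 12.23 and 12.24 in space flight against 11.15 and 11.54 in ground control, a 1.85-fold difference (limma adjusted p = 0.128). Its flight values were almost equal, and its difference ran from 0.70 to 1.08 with any 1 array left out. Atp5l, subunit g, had 11.32 and 11.78 in space flight against 10.41 and 11.17 in ground control, at 0.76 ± 0.31 (SE; limma adjusted p = 0.296), where ground array 1 was far below the others. Without ground control replicate 1 its difference was 0.38. Atp5k, subunit e, and Atp5j2, subunit f, stood at 0.30 ± 0.16 and 0.18 ± 0.14, and all their other measured probe sets lay above 0 as well, from 0.02 to 0.53.

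The F1 genes went both ways. Atp5c1 encodes the gamma subunit, the shaft that turns inside the head. It had 13.38 and 13.48 in space flight against 14.18 and 13.97 in ground control, a difference of −0.64 ± 0.16 (SE; limma adjusted p = 0.123). Both groups were tight and well separated, and its second, dim probe set had 7.55 and 6.60 in space flight against 8.11 and 7.62 in ground control, a difference of −0.78. The catalytic beta subunit gene Atp5b had 13.54 and 13.32 in space flight against 13.72 and 13.64 in ground control, at −0.25 ± 0.16 with no overlap. The alpha subunit gene Atp5a1 had 13.37 and 12.86 in space flight against 13.19 and 13.14 in ground control, and the flight arrays lay on either side of the ground arrays. Its 3 probe sets gave −0.05, −0.10 and, on the dimmest, 0.57. Atp5d and Atp5e, the delta and epsilon subunits of the central stalk, stood at 0.24 ± 0.16 and 0.57 ± 0.31, and Atp5e had 12.40 and 13.32 in space flight against 11.97 and 12.60 in ground control, with flight array 2 alone above the ground range. The difference of Atp5e was 0.11 without space flight replicate 2, 0.26 without ground control replicate 1, 0.88 without ground control replicate 2 and 1.03, and called, without space flight replicate 1.

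Mouse c subunits are made from Atp5g1, Atp5g2 and Atp5g3, whose mature protein is the same. Atp5g1 had 9.94 and 10.67 in space flight against 9.94 and 10.09 in ground control, at 0.29 ± 0.32 (SE). Atp5g2 had 12.00 and 12.05 in space flight against 12.01 and 12.24 in ground control, at −0.10 ± 0.21. Atp5g3 had 14.43 and 14.43 in space flight against 14.43 and 14.41 in ground control, at 0.01 ± 0.13. The groups of all 3 genes overlapped, and only Atp5g1 on flight array 2 left the range of the other arrays by more than 0.5.

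In the peripheral stalk, Atp5pb (subunit b) had 14.15 and 14.30 in space flight against 13.86 and 13.96 in ground control, a difference of 0.32 ± 0.15 (SE; limma adjusted p = 0.356) with both flight values above and 0.40 on its second probe set. Atp5h (subunit d) stood at 0.14 ± 0.13, also with no overlap, and its second probe set gave 0.17 with overlap. Coupling factor 6, encoded by Atp5j, had 13.00 and 13.50 in space flight against 13.38 and 13.54 in ground control, at −0.21 ± 0.20, and flight array 1 was the low one. Atp5o, the oligomycin sensitivity conferring protein, had 11.88 and 12.13 in space flight against 11.98 and 12.42 in ground control, at −0.20 ± 0.23, while its second probe set, of the class that can bind further transcripts, gave 0.42.

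**Figure D3:**
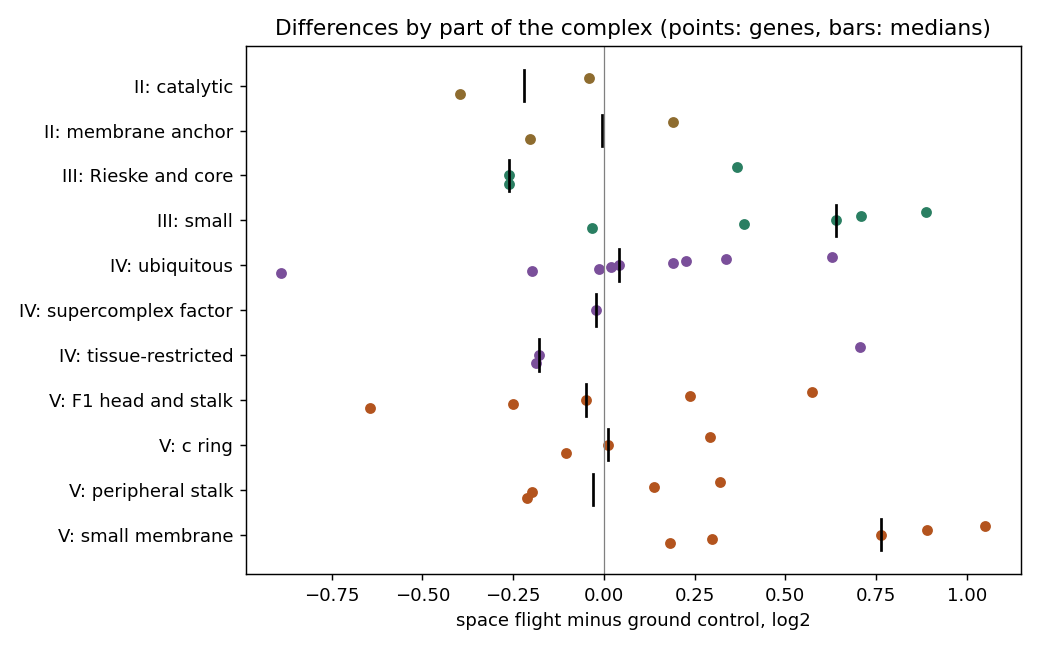
Differences between space flight and ground control of the measured members, in log2 units, by structural part of each complex; points are genes and black bars are medians. The small membrane subunits of complex V (median 0.76) and the small subunits of complex III (median 0.64) lie to the right of the other parts, whose medians run from −0.26 to 0.04.

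Of the 91 member probe sets, 78 reached the limit, and each probe set tested by itself gave 0 calls among members, where 0.00% of 19260 probe sets were called by limma. Both space flight arrays lay above for 29 of the 78 and below for 10, beside 20.9% and 22.8% of all such probe sets. The difference was above 0 for 50 of the 78, beside 48.9% of all. For 26 genes 2 or more probe sets were measured, and these agreed in sign for 20 genes, 14 above 0 and 6 below. Signs were mixed for Atp5a1, Atp5o, Cox6c, Cox7a2l, Sdhd and Uqcrb. Probe sets of a gene read the same transcript and are no replicates.

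**Figure D4:**
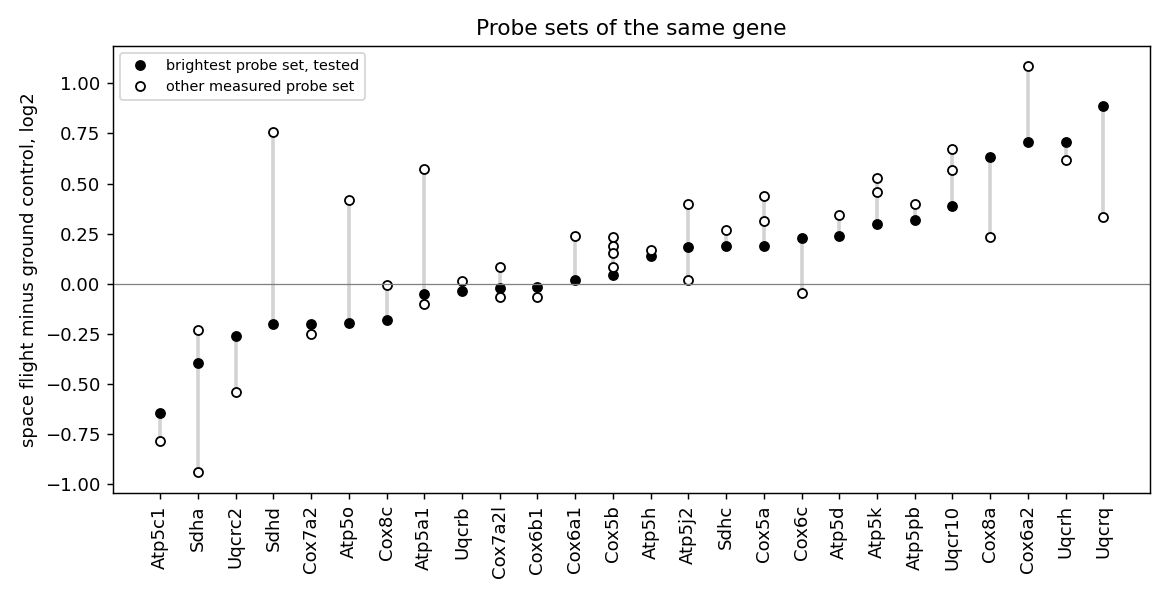
Differences between space flight and ground control, in log2 units, for each measured probe set of the 26 members with 2 or more; filled points are the brightest probe sets, open points the others, and grey lines join probe sets of a gene. Atp5c1, Sdha and Uqcrc2 lie below 0 on all their measured probe sets and Uqcrq, Uqcrh and Cox6a2 above, while Sdhd, Atp5o and Atp5a1 span 0.

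Among related genes outside the rule, 0 of 32 measured complex I subunits passed limma's test, 12 were higher at an unadjusted p under 0.05 (37.5%, against 6.88% of all measured genes) and 0 lower (7.32% of all), and their median difference was 0.28. Ndufa5 and Ndufs5 stood highest at 1.14 ± 0.19 and 0.95 ± 0.28 (SE), and the core subunit gene Ndufs1 and Ndufa8 lowest at −0.49 ± 0.30 and −0.19 ± 0.21. Of 30 measured assembly factors for complexes II to V, 0 passed, with 3 higher and 1 lower at an unadjusted p under 0.05 and a median of 0.12. These counts lie near the 6.88% and 7.32% of all measured genes. Pet100 and Sdhaf1, which act in the assembly of complexes IV and II, stood highest at 1.34 ± 0.34 and 0.66 ± 0.37. The lowest were Sdhaf3 at −0.94 ± 0.38 and the copper chaperone gene Sco1 at −0.62 ± 0.40.

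Of 8 measured carriers and further subunits, 0 passed, with 2 higher and 1 lower at an unadjusted p under 0.05, too few genes to set against the same 6.88% and 7.32%. Ndufa4, a subunit of complex IV despite its name, had 12.19 and 11.65 in space flight against 11.09 and 11.16 in ground control, a difference of 0.80 ± 0.26 (SE), and Higd1a stood at 0.58 ± 0.17. The ADP/ATP carrier gene Slc25a5 had 13.65 and 13.41 in space flight against 14.14 and 14.12 in ground control, at −0.60 ± 0.16. Cyc1, the cytochrome c1 of complex III, had 12.47 and 12.49 in space flight against 12.95 and 12.74 in ground control, at −0.37 ± 0.19. Both were low on each flight array, as were Uqcrfs1 and Uqcrc2. Of 11 measured regulators of mitochondrial biogenesis, 0 passed, with 1 higher and 1 lower at an unadjusted p under 0.05, near the shares of all genes. Yy1 and Gabpb1 stood highest at 0.54 ± 0.20 and 0.40 ± 0.49, and Gabpa, the DNA-binding subunit of GABP, and the coactivator gene Ppargc1b stood lowest at −0.73 ± 0.30 and −0.49 ± 0.30.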

How the data were processed

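Per the labels' protocols, RNA went through a pair of amplification rounds that added biotin, and Affymetrix mouse arrays were used. The authors deposited 1 linear intensity per probe set and array. The submitters' processing notes name GCOS, with no version; how probes were summarised is not stated there. In the deposited intensity columns the mean trimmed by 2% at each end was 500.004 on each array.

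From these, log2(intensity + 16) was quantile normalized without the 64 control probe sets, since array medians differed by up to 0.385; this scale understates changes of dim genes. Symbols came from the platform annotation, and all 91 member probe sets matched RefSeq gene IDs. Each gene was taken by its brightest single-symbol probe set, fitted in limma 3.58.1 (R 4.3.3, intensity trend, two-sided; 2 residual and 10.4 moderated degrees of freedom). The procedure was run on simulated data with planted differences larger than that of any member. That run therefore says nothing about differences of the size seen here. The small number of arrays limits precision. The labels give the integrity numbers by pool letters, not by replicate number.

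Members, lists and structural groups were chosen with earlier results of these data known. Genes named with values on all arrays followed a rule: the Sdh genes, the 4 highest and 2 lowest of complexes III, IV and V, isoform families and genes with probe sets of mixed sign, with others added after their values were seen. Alternatives covered scaling, pseudocount, the filter on dim genes, trend, choice of probe set, a replicate block and leaving out each array.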

Additional observations from a re-analysis of the deposited data

How the results depend on the processing

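With 2 arrays per group, depth of evidence is limited by arrays, and dim genes such as Cox7c by their signal. No member was called under any of the 11 other scalings, pseudocounts, filters, trend or probe set choices. Over all genes, 5 were called higher and 2 lower; the counts were 12 and 4 with the deposited scaling alone, 16 and 5 with cyclic loess, 16 and 12 with the stricter filter, 16 and 9 without probe sets ending in _s_at or _x_at, and 6 lower with pseudocount 64. They were 0 and 0 with a shift to 1 median, no filter, no trend, the mean of probe sets or each probe set by itself. With 1 array left out they ran from 6 to 470 and from 1 to 610, members called from 0 to 9, and members at an unadjusted p under 0.05 from 2 to 13 higher and from 1 to 3 lower; the lone array is then assumed to vary like the other group. Members higher at that p numbered 3 with the shift to 1 median and 4 without the trend; members lower numbered 0 with the deposited scaling and without _s_at or _x_at probe sets, and 2 with the mean of probe sets or each probe set.

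The shift to 1 median put complexes II, III and IV at −0.34, 0.13 and 0.061. The deposited scaling gave 0.33 for complex III, 0.26 for complex IV and 0.36 for complex V. For complex IV the median was 0.13 with cyclic loess, 0.041 with no filter, 0.12 with the stricter filter, 0.092 with the mean of probe sets, 0.10 without _s_at or _x_at probe sets and 0.082 with each probe set; for complex II it turned to 0.094 with the mean of probe sets. With 1 array left out the medians ran from −0.18 to −0.064 for II, 0.26 to 0.39 for III, −0.031 to 0.16 for IV and 0.099 to 0.27 for V.

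Signs turned for some members, most of them near 0, but also for Cox7c and Atp5g1. The mean of probe sets gave 0.14 for Atp5a1, 0.11 for Atp5o and 0.28 for Sdhd. The deposited scaling gave 0.19 for Cox6b1, 0.035 for Cox7a2, 0.14 for Cox7a2l and 0.29 for Uqcrb; cyclic loess gave 0.078 for Cox6b1, 0.048 for Cox7a2l and 0.10 for Uqcrb; the shift to 1 median gave −0.052 for Sdhc and 0.084 for Uqcrb. With 1 array left out, differences ran from −0.31 to 0.21 for Atp5a1, −0.074 to 0.66 for Atp5g1, −0.22 to 0.010 for Atp5g2, −0.46 to 0.042 for Atp5j, −0.42 to 0.021 for Atp5o, −0.049 to 0.13 for Cox5b, −0.031 to 0.072 for Cox6a1, −0.33 to 0.30 for Cox6b1, −0.62 to 0.25 for Cox7a1, −2.21 to 0.43 for Cox7c, −0.38 to 0.018 for Cox8c, −0.12 to 0.037 for Sdhb and −0.22 to 0.15 for Uqcrb. The cause was not tested.

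The replicate numbers of the labels mark no stated pairing, and replicate deviations of the groups correlated at 0.06 across genes. With the replicate block, 220 genes were called higher and 213 lower, or 3.89% of genes, and 5 members were called: Atp5c1, Atp5md, Atp5mpl, Uqcrh and Uqcrq, with limma adjusted p from 0.00901 to 0.0343.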
